A study of Takifugu fasciatus with 6 samples.

Results

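Aminoacyl-tRNA ligases were followed in the liver of juvenile *Takifugu fasciatus*, a pufferfish, in fish exposed to cold water (EG) and in control fish (CG). The members are the genes whose best protein match carries "tRNA ligase" or "tRNA synthetase" in its name, letter case ignored. This rule found 39 of the 20990 genes in the table, without use of any expression value. In 17 of them the protein name holds the word cytoplasmic, in 14 the word mitochondrial, and in 8 neither word, and these classes are reported apart.

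The libraries are Ga, Gb and Gc for EG and G1, G2 and G3 for CG, so n = 3 in each group. EG fish were cooled to 19 °C, held there for 12 h, cooled further to 12 °C and kept at 12 °C for 24 h. CG fish stayed at 26 °C. Fish of both groups had first been acclimated for 2 weeks at the control temperature, in 6 aquaria, and feeding had stopped before the treatment began. Each library was a pool of 6 livers, so the SD given below is that between pools and not between fish.

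Aminoacyl-tRNA ligases, also called aminoacyl-tRNA synthetases, join each amino acid to the transfer RNAs that read its codons, with ATP as the source of energy, and so supply the ribosome with charged tRNA. Most animals carry separate nuclear genes for the enzymes of the cytoplasm and for those imported into the mitochondrion, although in vertebrates single genes for the glycine and lysine enzymes are known to serve both places. The enzymes belong to 2 structural classes, I and II, and several cytoplasmic ones are held in a multi-synthetase complex by the scaffold proteins AIMP1, AIMP2 and EEF1E1.

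Names with cytoplasmic or with neither word covered all 20 standard amino acids. Each symbol is that of the closest Swiss-Prot entry, mostly from another species, whose spelling was kept. The match had an E-value of 0 in 28 members. It was weak, above 1e-20, in 3 members, namely CARS, mrs-1 and LARS2, so their names are the least certain. Novel00502 had no Swiss-Prot match and was included for its match to a mitochondrial phenylalanine ligase of another fish. PRORSD1 entered through the words in its name, which is that of a protein with a prolyl-tRNA synthetase associated domain and not of a ligase. Of the 39 members, 35 carried the GO term for aminoacyl-tRNA ligase activity, and PRORSD1, yars, EARS2 and mrs-1 did not.

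Where 1 symbol occurred more than once, the last digits of the gene identifier were added. TARS_4853 and Tars_1161 were matched to the cytoplasmic threonine enzyme, and tarsl2 to a paralog named probable threonine ligase 2, cytoplasmic. IARS_6241 and IARS_6243 were both matched to the cytoplasmic isoleucine enzyme, lay on the same strand of scaffold 313, and were separated by 2686 bases with 1 other gene model between them. Whether these are separate genes or pieces of 1 gene was not tested. The members lay on 35 scaffolds, and their lengths ran from 279 bases for mrs-1 to 5361 bases for LARS. The yars model had only 501 bases. Reads shared between near-identical copies could have been split among them by the counting.

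The counts of the libraries summed to between 31150888 and 45548824. Spearman correlations of expression ran from 0.958 to 0.983 between libraries of 1 group and from 0.87 to 0.905 between groups. Levels are given in CPM, the count of a gene per 1000000 counts of its library after scaling. Hepatocyte markers summed to 250381 to 300562 CPM in EG and 206700 to 235769 CPM in CG and all 19 had counts. Of the 18 of these that were tested, 8 were higher (44.4%) and 3 lower (16.7%) in EG, beside 23.7% and 21.7% of all tested genes. The test used is described below. Erythrocyte markers summed to 2113 to 4275 CPM in EG and 4201 to 10686 CPM in CG, with 6 of 9 lower in EG (66.7%) and none at 0. Leukocyte markers summed to 29.9 to 63.1 CPM in EG and 75.3 to 116 CPM in CG, with 5 of 13 tested lower (38.5%) and none at 0. These values leave out 1 gene model that joined the list by the symbol LCP2 while its protein name is that of a digestive cysteine proteinase, a choice made after seeing the data, and with it the sums were 51.5 to 91.6 CPM in EG and 108 to 145 CPM in CG. Endothelial and stellate markers summed to 918 to 1585 CPM in EG and 1434 to 1865 CPM in CG, with 5 of 22 tested lower (22.7%). In this list 1 of 2 models of Col1a2 and 1 of 4 models of DES had no counts. Biliary and gut markers summed to 29.6 to 36.1 CPM in EG and 47.7 to 54.3 CPM in CG, with 1 of 4 tested lower (25%). The shares of lower genes in these last 2 lists lay near the 21.7% of all tested genes. KRT19 had no counts, nor had 1 of 2 models each of CDX1 and Fabp2, whose other models stayed at or under 0.107 and 0.699 CPM. Exocrine pancreas markers ranged from 643 CPM in Gb to 23319 CPM among EG libraries and from 6142 to 26636 CPM among CG libraries. Of 13 of them tested, 1 was lower (7.69%). In none of these lists other than hepatocytes was a gene higher in EG. The part of these cell types in the results for the ligases was not tested, and in bulk liver fewer cells of a type and less RNA per cell cannot be told apart.

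The ligases did not move as 1 block. Differences of EG from CG were tested with the quasi-likelihood test of edgeR, on counts scaled by TMM factors (trimmed mean of M-values), with Benjamini-Hochberg adjustment over the 14357 genes tested, which included all 39 members. At an adjusted p under 0.05, 12 members (30.8%) were higher in EG, beside 23.7% of all tested genes. Lower in EG were 5 members (12.8%), beside 21.7% of all tested genes. In either direction 17 members passed, beside 45.4% of all tested genes, and 22 did not. The median log2 fold change was 0.32 over the members and -0.03 over all tested genes, and 28 members had a positive value. With a fold change over 2 required as well, 7 members were higher, beside 13.7% of all genes, and 3 were lower, beside 15.4%. All EG libraries lay above all CG libraries for 18 members, beside 29% of all genes, and below them for 7 members, beside 28.8%. In all, the groups did not overlap for 25 members, beside 57.8% of all genes.

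**Figure D1:**
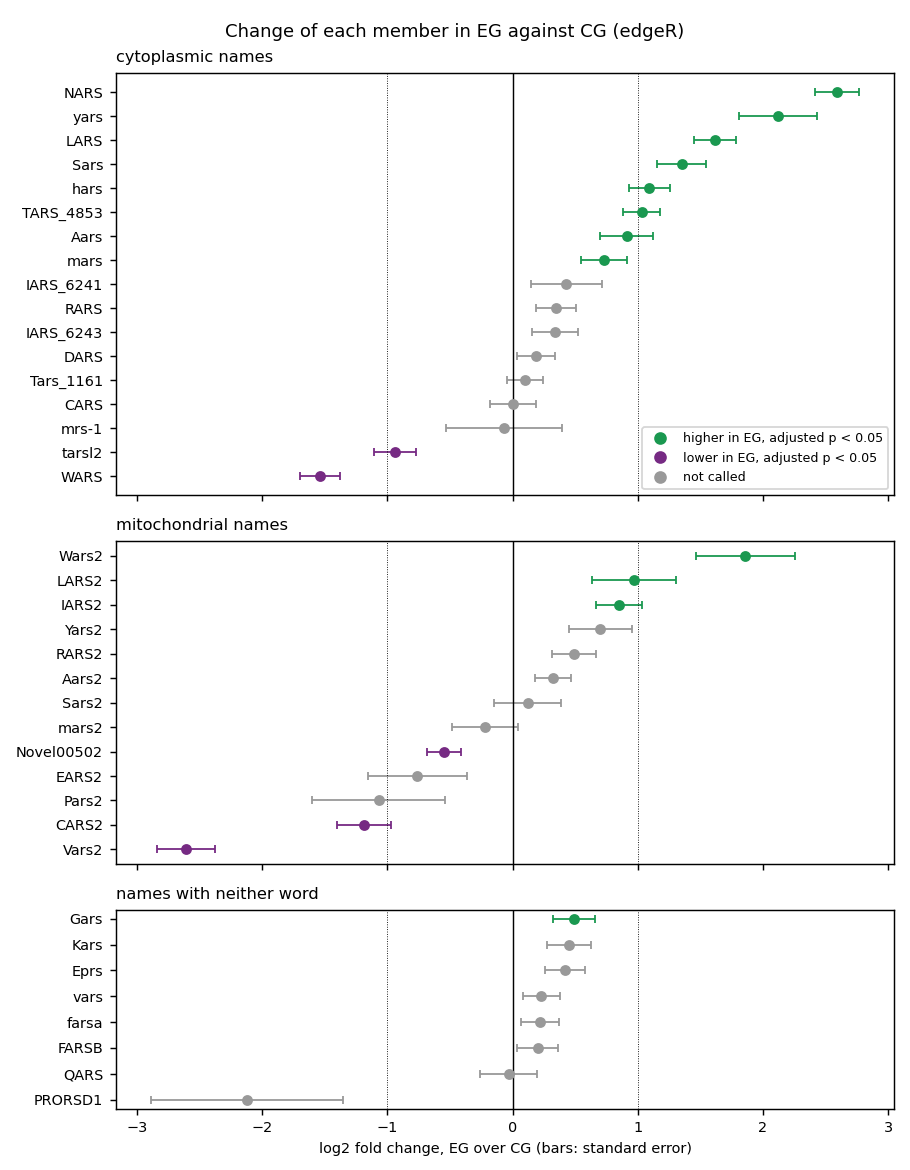
Log2 fold change of 38 members, EG over CG, with bars for the standard error of the edgeR fit, in 3 panels for cytoplasmic names, mitochondrial names and names with neither word. Green and purple mark members higher and lower in EG at an adjusted p under 0.05, dotted lines mark a fold change of 2, and the values run from 2.59 for NARS to -2.61 for Vars2.

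The classes differed in their counts. Among all tested genes 23.7% were higher and 21.7% lower. Among cytoplasmic names 8 of 17 were higher (47.1%) and 2 lower (11.8%), with a median log2 fold change of 0.43. Among mitochondrial names 3 of 14 were higher (21.4%) and 3 lower (21.4%), near the shares over all tested genes, with a median of 0.17. Among names with neither word 1 of 8 was higher (12.5%) and none lower, with a median of 0.23. These are descriptions, and the difference between classes was not tested. The summed level of the cytoplasmic names was 1050, 1041 and 914 CPM in Ga, Gb and Gc, against 610, 631 and 601 CPM in G1, G2 and G3. That of the mitochondrial names was 149, 175 and 147 CPM in EG, against 150, 143 and 153 CPM in CG, and the groups overlapped. The names with neither word summed to 519, 467 and 465 CPM in EG, against 368, 413 and 366 CPM in CG. These sums carry the TMM factors. As a share of unscaled counts this class held 0.0428, 0.0454 and 0.0407% in EG and 0.0416, 0.0454 and 0.042% in CG, with overlap. The mitochondrial names held 0.0123, 0.017 and 0.0128% in EG and 0.0169, 0.0157 and 0.0176% in CG, also with overlap. The cytoplasmic names held 0.0865, 0.101 and 0.08% in EG and 0.069, 0.0692 and 0.0689% in CG, without overlap.

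The scaling also bears on the numbers of called members. TMM factors were 0.8236 to 0.9727 in EG and 1.0976 to 1.1465 in CG, so dividing by library totals alone lowers every gene of EG relative to CG. It put the median log2 fold change at -0.37 over all tested genes and at -0.01 over the members, a gap like that under TMM. Under it 7 members were higher, where 14.1% of all genes were, and 6 were lower, where 31.4% of all genes were. Of the 17 members called, 11 kept their call and direction under all 12 alternatives that were tried. These were NARS, yars, LARS, Sars, hars, TARS_4853 and Wars2, which were higher, and WARS, tarsl2, CARS2 and Vars2, which were lower.

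The levels of the members spanned a wide range. Levels per kilobase rest on the deposited lengths of the gene models, which were not checked, and so do the ranks below. Per kilobase of gene length, the scale on which genes can be compared, the cytoplasmic aspartate enzyme DARS was the highest member in both groups, at 139 ± 16.8 CPM per kilobase in EG and 122 ± 8.92 in CG (SD, n = 3 each). In EG it was followed by NARS at 54.9 ± 9.44, RARS at 48.7 ± 8.43, hars at 45.3 ± 7.64 and Kars at 42.4 ± 7.92 CPM per kilobase, and these neighbours lay within each other's spread. In CG it was followed by RARS at 38.1 ± 1.03, Kars at 31.1 ± 2.65, farsa at 30.8 ± 3.19 and FARSB at 29.3 ± 5.14 CPM per kilobase, of which Kars, farsa and FARSB lay within each other's spread. NARS ranked 2 of 39 in EG and 17 of 39 in CG. WARS ranked 21 in EG and 8 in CG, and Vars2 ranked 38 in EG and 25 in CG. Among mitochondrial names Aars2 was highest in EG, at 22.2 ± 2.53 CPM per kilobase, and Novel00502 was highest in CG, at 19.3 ± 1.34. The lowest member in EG was PRORSD1, at 0.572 ± 0.429 CPM per kilobase, and in CG it was LARS2, at 0.681 ± 0.0903.

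**Figure D2:**
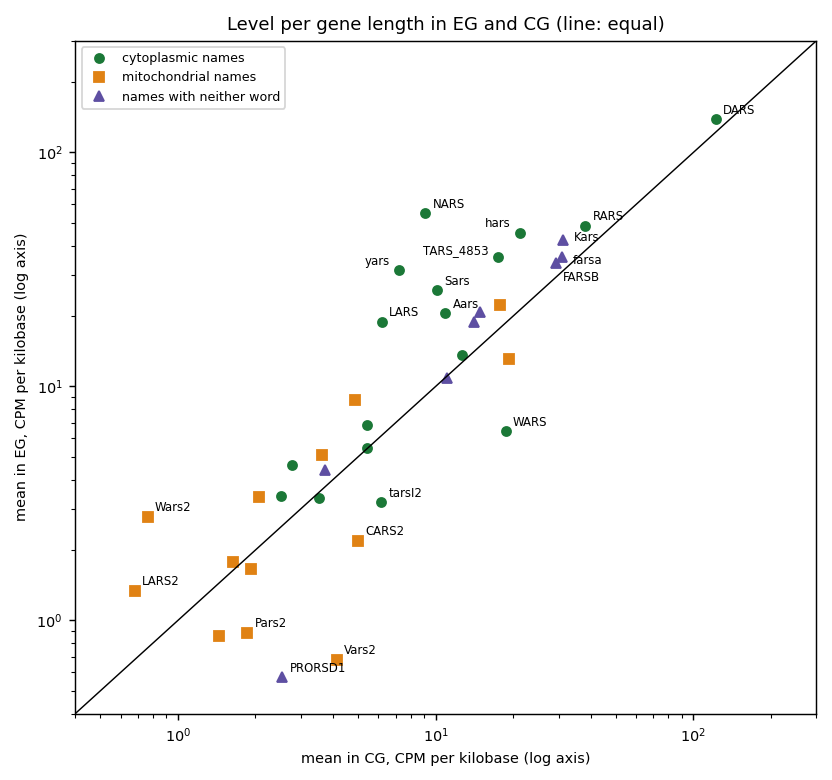
Mean level of 38 members per kilobase of gene length, EG on the vertical and CG on the horizontal log axis, with 1 point per member, shaped by name class, and a line where the groups are equal. DARS lies close to the line at the top, NARS, yars and LARS lie far above it, and WARS, Vars2 and CARS2 lie below it.

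The asparagine enzyme NARS had the highest log2 fold change of the members. NARS lies on scaffold 31 from base 1846714 to 1857001. It had 144, 145 and 105 CPM in Ga, Gb and Gc, against 20.1, 22.1 and 23.3 CPM in G1, G2 and G3. The lowest EG pool was thus several times the highest CG pool. The log2 fold change was 2.59 ± 0.177 (SE), a 6.02-fold higher level (edgeR adjusted p = 6.67e-05). Leaving out any library kept the call, with adjusted p between 0.000229 and 0.00127.

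The tyrosine enzyme yars, read from a short gene model, had 21.8, 16.3 and 9.21 CPM in EG, against 3.25, 3.74 and 3.87 CPM in CG. Its EG pools spread more widely than those of NARS, and the groups did not overlap. The log2 fold change was 2.12 ± 0.308 (edgeR adjusted p = 0.00115).

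LARS, which charges leucine tRNA and in mammals also serves as a leucine sensor for the mTORC1 kinase, had 112, 111 and 81.4 CPM in EG, against 31.1, 34.9 and 33.2 CPM in CG. The groups were far apart, with a log2 fold change of 1.62 ± 0.168 (edgeR adjusted p = 0.000271). The serine enzyme Sars had 41.4, 46.2 and 31.9 CPM in EG, against 17.1, 17.1 and 12.6 CPM in CG. For Sars the log2 fold change was 1.35 ± 0.195 (edgeR adjusted p = 0.00114). In NARS, yars, LARS and Sars alike, Gc was the lowest EG pool and still lay above all CG pools.

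The histidine enzyme hars averaged 68.9 ± 11.6 CPM in EG and 32.3 ± 2.59 CPM in CG, with a log2 fold change of 1.09 (edgeR adjusted p = 0.00134). The threonine enzyme TARS_4853, among the most abundant members, averaged 161 ± 22.4 CPM in EG and 79.3 ± 2.22 CPM in CG, with a log2 fold change of 1.03 (edgeR adjusted p = 0.00117). Both passed a fold change of 2 by a small margin with TMM factors. Over the 12 alternatives the lowest log2 fold change was 0.72 for hars and 0.65 for TARS_4853, which is under a fold change of 2.

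Aars, the alanine enzyme, had 45.1, 78.6 and 54.3 CPM in EG, against 33.9, 31.5 and 29.2 CPM in CG. This gave a log2 fold change of 0.91 ± 0.213 (edgeR adjusted p = 0.00959). Scaled by library totals alone it was 0.60, at an adjusted p of 0.083. The methionine enzyme mars, whose tRNA also starts translation, had 9.76, 12.8 and 10 CPM in EG, against 5.99, 6.95 and 6.67 CPM in CG. For mars the log2 fold change was 0.73 ± 0.181 (edgeR adjusted p = 0.0123), and without G1 the adjusted p was 0.0561. The groups did not overlap in either gene, but both calls were lost under library totals and in the limma fits of FPKM.

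**Figure D3:**
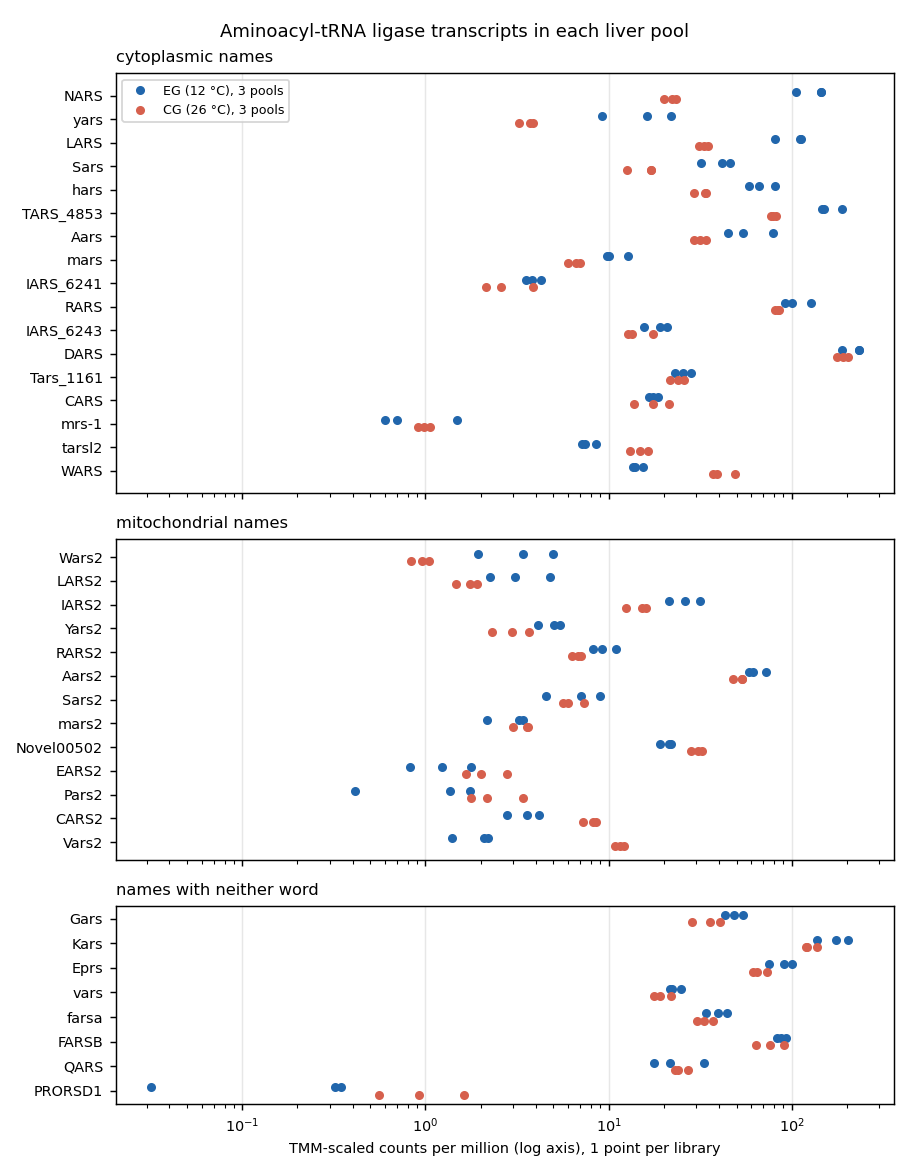
TMM-scaled CPM of 38 members in each of the 6 libraries on a log axis, EG pools in blue above CG pools in red, in panels by name class. NARS at 105 to 145 CPM in EG against 20.1 to 23.3 CPM in CG and Vars2 at 1.39 to 2.19 CPM against 10.8 to 12.2 CPM show the widest separation, while DARS, Tars_1161 and QARS overlap.

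WARS moved opposite to the cytoplasmic enzymes above. This enzyme charges tryptophan tRNA and is known in mammals as a gene induced by interferon gamma. It had 13.6, 15.5 and 13.9 CPM in EG, against 37.1, 39.0 and 49.3 CPM in CG. The EG pools lay within a narrow range well below the CG pools. The log2 fold change was -1.54 ± 0.159 (edgeR adjusted p = 0.000264).

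The other cytoplasmic name that was lower belonged to a threonine enzyme. The tarsl2 gene, a threonine-ligase paralog, had 7.12, 7.43 and 8.57 CPM in EG, against 14.9, 16.4 and 13.1 CPM in CG. Its log2 fold change was -0.94 ± 0.166 (edgeR adjusted p = 0.00279). Tars_1161 averaged 25.5 ± 2.48 CPM in EG and 23.8 ± 2.12 CPM in CG, and its log2 fold change of 0.10 did not pass the test (edgeR adjusted p = 0.604). Of the 3 threonine members, then, TARS_4853 was higher, tarsl2 was lower and Tars_1161 overlapped. How any reads shared between these gene models were divided was not tested.

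The remaining cytoplasmic names did not pass the test. DARS had 233, 187 and 232 CPM in EG, against 191, 204 and 176 CPM in CG, and the groups overlapped (log2 fold change 0.19). The arginine enzyme RARS had 127, 100 and 92.2 CPM in EG, against 84.1, 80.9 and 85.3 CPM in CG. Its EG pools all lay above the CG pools, yet the log2 fold change of 0.35 did not pass (edgeR adjusted p = 0.104). IARS_6241 had 3.81, 3.53 and 4.27 CPM in EG, against 2.60, 3.86 and 2.13 CPM in CG. IARS_6243 had 19.0, 20.9 and 15.6 CPM in EG, against 17.5, 13.5 and 12.7 CPM in CG. Both isoleucine models overlapped between groups, with log2 fold changes of 0.43 and 0.34. CARS, a weak match to the cysteine enzyme, had 16.6, 18.7 and 17.4 CPM in EG, against 17.4, 21.5 and 13.7 CPM in CG (log2 fold change 0.00). The weak methionine match mrs-1 had 1.49, 0.603 and 0.702 CPM in EG, against 0.979, 0.907 and 1.06 CPM in CG (log2 fold change -0.07). It rested on 19 to 56 reads per EG library, so a small difference was not detectable at this depth.

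Mitochondrial names went both ways, and Vars2, the mitochondrial valine enzyme, had the lowest log2 fold change of the members in the edgeR fit. Vars2 lies on scaffold 60 from base 639405 to 647561. It had 1.39, 2.10 and 2.19 CPM in EG, against 11.6, 12.2 and 10.8 CPM in CG, which came from 52 to 75 reads per EG library and 386 to 524 reads per CG library. The log2 fold change was -2.61 ± 0.23 (edgeR adjusted p = 0.000151), and in size it lay within its error of that of NARS. The limma fit of log2(FPKM + 1), a scale that understates changes at low levels, gave -1.82 for Vars2 and 2.13 for NARS. The gene vars, for the valine enzyme whose name has neither word, averaged 22.9 ± 1.8 CPM in EG and 19.5 ± 2.18 CPM in CG, and its log2 fold change of 0.23 did not pass the test.

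The mitochondrial cysteine enzyme CARS2 had 2.77, 4.16 and 3.60 CPM in EG, against 7.28, 8.23 and 8.52 CPM in CG. This was a log2 fold change of -1.19 ± 0.216 (edgeR adjusted p = 0.00321). Novel00502, the mitochondrial phenylalanine match, had 22.0, 19.0 and 21.5 CPM in EG, against 28.3, 32.5 and 30.9 CPM in CG. Its log2 fold change was -0.55 ± 0.135 (edgeR adjusted p = 0.0119), and without G2 the adjusted p was 0.0572. The subunits of the other phenylalanine enzyme, farsa and FARSB, had log2 fold changes of 0.22 and 0.20 that did not pass the test.

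Wars2, which charges tryptophan tRNA in the mitochondrion, was higher in EG, while WARS was lower. Wars2 had 3.41, 4.95 and 1.93 CPM in EG, against 0.955, 0.837 and 1.04 CPM in CG, from 36 to 40 reads per CG library. Its log2 fold change was 1.86 ± 0.396 (edgeR adjusted p = 0.0064). IARS2, the mitochondrial isoleucine enzyme, had 26.2, 31.4 and 21.4 CPM in EG, against 15.3, 12.4 and 16.1 CPM in CG. The log2 fold change of IARS2 was 0.85 ± 0.185 (edgeR adjusted p = 0.00711). Library totals gave 0.52, at an adjusted p of 0.0844. LARS2, a weak match to the mitochondrial leucine enzyme, had 3.09, 4.76 and 2.25 CPM in EG, against 1.91, 1.46 and 1.76 CPM in CG. Its log2 fold change of 0.97 ± 0.339 just passed the test (edgeR adjusted p = 0.0465). It no longer passed when Ga, Gb, G1, G2 or G3 was left out, with adjusted p of 0.0679, 0.134, 0.0926, 0.13 and 0.0998.

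None of the other mitochondrial names passed the test. The tyrosine enzyme Yars2 had 5.01, 5.43 and 4.12 CPM in EG, against 3.68, 2.98 and 2.32 CPM in CG, with a log2 fold change of 0.70 (edgeR adjusted p = 0.0528). The arginine enzyme RARS2 had 11.0, 8.26 and 9.21 CPM in EG, against 7.09, 6.81 and 6.33 CPM in CG, with a log2 fold change of 0.49 (edgeR adjusted p = 0.0541). Both had EG pools above all CG pools and missed the threshold narrowly with TMM factors. RARS2 passed without Gb (adjusted p = 0.036), and Yars2 passed without Gc, just under the threshold. Neither passed with any other library left out, nor with library totals, upper quartile factors or either limma fit.

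Aars2, the mitochondrial alanine enzyme, had 58.3, 72.3 and 61.7 CPM in EG, against 53.3, 47.5 and 53.4 CPM in CG, without overlap (log2 fold change 0.32, edgeR adjusted p = 0.105). The serine enzyme Sars2 had 4.53, 8.99 and 7.11 CPM in EG, against 5.99, 5.67 and 7.31 CPM in CG (log2 fold change 0.12). Sars2 overlapped between groups. So did mars2, the mitochondrial methionine enzyme, which had 3.41, 3.24 and 2.16 CPM in EG, against 3.60, 3.65 and 3 CPM in CG (log2 fold change -0.22). The glutamate enzyme EARS2 averaged 1.28 ± 0.478 CPM in EG and 2.16 ± 0.581 CPM in CG (log2 fold change -0.76, edgeR adjusted p = 0.154). The proline enzyme Pars2 averaged 1.17 ± 0.688 CPM in EG and 2.46 ± 0.856 CPM in CG (log2 fold change -1.07, edgeR adjusted p = 0.136). EARS2 and Pars2 were among the scarcest members and varied widely between pools.

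Among names with neither word, only the glycine enzyme Gars passed the test. It averaged 48.8 ± 5.53 CPM in EG and 34.8 ± 6.0 CPM in CG, with a log2 fold change of 0.49 (edgeR adjusted p = 0.0486). That call was lost when Gb, Gc, G1 or G3 was left out, with adjusted p of 0.117, 0.0813, 0.118 and 0.15. Library totals gave Gars 0.16, at an edgeR adjusted p of 0.531. Its call was also lost with upper quartile factors, with no filter on low counts and in both limma fits. The lysine enzyme Kars, the highest of this class per kilobase, had 202, 138 and 175 CPM in EG, against 121, 138 and 119 CPM in CG. Gb and G2 were nearly equal, and the log2 fold change of 0.45 did not pass (edgeR adjusted p = 0.0664), though it did without Gb (adjusted p = 0.0226). Eprs, a single protein that charges both glutamate and proline tRNA, averaged 88.6 ± 12.8 CPM in EG and 66.3 ± 6.01 CPM in CG, with a log2 fold change of 0.42 (edgeR adjusted p = 0.0631). It passed without Gc (adjusted p = 0.0265). Neither Kars nor Eprs passed with any other library left out, nor with library totals, upper quartile factors or either limma fit. The glutamine enzyme QARS averaged 24.2 ± 7.9 CPM in EG and 24.7 ± 2.15 CPM in CG (log2 fold change -0.03). PRORSD1, which is not a ligase, averaged 0.233 ± 0.175 CPM in EG and 1.04 ± 0.541 CPM in CG. It rested on 13, 1 and 11 reads in the EG libraries, and its log2 fold change of -2.12 did not pass the test (edgeR adjusted p = 0.0531).

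In mammals several ligases are known to sit in the multi-synthetase complex. Of the 9 gene models for its enzymes, LARS and mars were higher (22.2%, beside 23.7% of all tested genes) and none was lower, beside 21.7%. The median log2 fold change was 0.42, within a range of -0.03 to 1.62. Of the 15 ligases outside it without a mitochondrial name, 7 were higher (46.7%) and 2 lower (13.3%), with a median of 0.23 and a range of -1.54 to 2.59. The 9 models include both isoleucine models. The 15 include mrs-1, a weak match that shares the methionine name with mars. By enzyme class, again without mitochondrial names, 3 of 11 class I members were higher (27.3%) and 1 lower (9.09%). Of 12 class II members, 6 were higher (50%) and 1 lower (8.33%). The medians were 0.34 and 0.47. None of these differences between groups of members was tested.

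For 9 amino acids a cytoplasmic and a mitochondrial name were compared, which gave 11 pairs of genes. The pairs with CARS, LARS2 or mrs-1 rest on a weak match, so their amino acid is less certain. The ratio of the 2 levels within a library does not depend on the scaling of libraries, and it is given on the log2 scale as cytoplasmic over mitochondrial. The groups did not overlap in 7 of the 11 pairs, and over all genes taken singly they did not overlap for 57.8%. These 7 pairs had a two-sided p of 0.1 by the exact permutation test, the smallest that 3 against 3 libraries allow, and 0.157 after adjustment over the 11 pairs.

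The tryptophan pair changed most. WARS over Wars2 was 1.99, 1.65 and 2.84 in EG, against 5.28, 5.54 and 5.57 in CG, a difference of -3.30. In CG the cytoplasmic transcript thus exceeded the mitochondrial one by far more than in EG. In the other direction, yars over Yars2 was 2.12, 1.58 and 1.16 in EG, against -0.18, 0.33 and 0.73 in CG, a difference of 1.33. For serine, Sars over Sars2 was 3.19, 2.36 and 2.16 in EG, against 1.52, 1.59 and 0.79 in CG, a difference of 1.27. The ratio of the cytoplasmic to the mitochondrial tyrosine and serine enzymes was therefore higher in each EG library than in any CG library.

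The cysteine ratio, CARS over CARS2, differed by 1.23 between EG and CG, where the log2 fold change by TMM was -1.19 for CARS2 and 0.00 for CARS. The ratio of mars over mars2 differed by 0.96 and that of Aars over Aars2 by 0.56, both without overlap. That of IARS_6243 over IARS2 differed by -0.49, and was lower in every EG library. The groups overlapped for LARS over LARS2, which differed by 0.69, for IARS_6241 over IARS2 at -0.37, for RARS over RARS2 at -0.14 and for mrs-1 over mars2 at 0.05. The direction of the ratio thus varied with the amino acid.

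**Figure D4:**
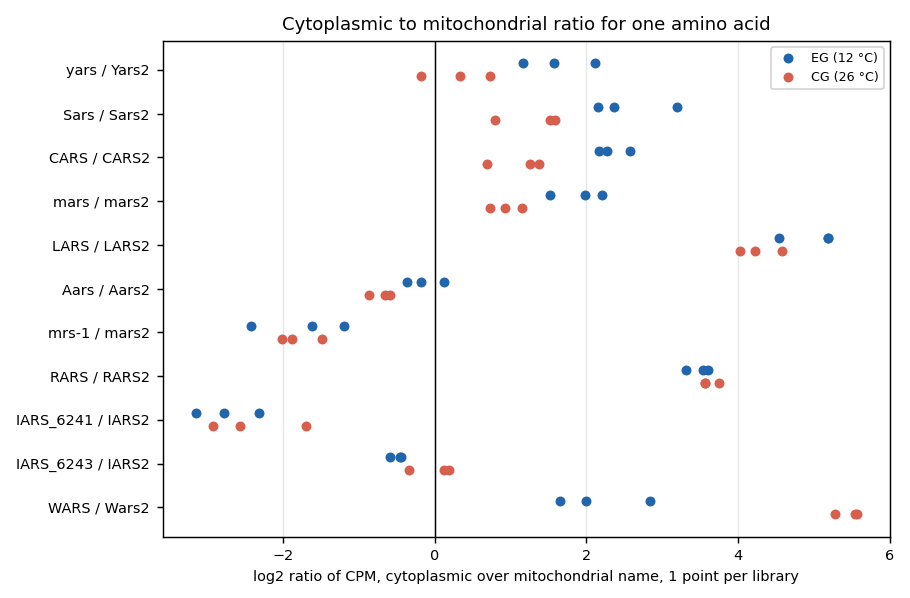
Log2 ratio of the cytoplasmic to the mitochondrial member for 11 pairs, 1 point per library, EG in blue above CG in red, ordered by the difference between groups. The WARS over Wars2 ratio lies at 1.65 to 2.84 in EG against 5.28 to 5.57 in CG, while yars over Yars2 lies at 1.16 to 2.12 in EG against -0.18 to 0.73 in CG.

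For most members the EG pools varied more among themselves than the CG pools. The coefficient of variation over 3 libraries had a median of 16.9% over members in EG and 10.4% in CG, and was larger in EG for 30 of the 39. Of the 12 members higher in EG, 9 had their highest EG level in Gb and 8 their lowest in Gc. These counts were not taken over all tested genes, so whether they are particular to the members was not tested. Gb is the EG library with the lowest sum of exocrine pancreas markers, and the part of that difference was not tested. Without Gb, 12 members were higher, beside 21.2% of all tested genes, and 5 were lower, beside 20.1%. RARS2 and Kars were gained and LARS2 and Gars lost among the higher members.

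Genes that handle tRNA before and after charging were set beside the ligases as lists, for which only counts are given, beside 23.7% of all tested genes higher and 21.7% lower. Over all these lists 41 genes were higher and 24 lower with TMM factors, and 29 were higher and 33 lower with library totals, under which 14.1% of all genes were higher and 31.4% lower. The split of a list into higher and lower genes thus depends on the scaling. Of the complex scaffold genes, 2 of 4 tested were higher and 1 lower. The copies of AIMP1 went opposite ways. Aimp1 (fugu_GLEAN_10018508) had 44.5, 50.2 and 36.9 CPM in EG, against 23.8, 20.5 and 22.8 CPM in CG, with a log2 fold change of 0.97 (edgeR adjusted p = 0.00189). AIMP1 (fugu_GLEAN_10000693) had 3.92, 3.81 and 4.56 CPM in EG, against 10.7, 8.97 and 10 CPM in CG, with a log2 fold change of -1.27 (edgeR adjusted p = 0.00108). Aimp2 had 29.7, 29.9 and 29.3 CPM in EG, against 20.6, 20.7 and 19.2 CPM in CG, with a log2 fold change of 0.56 (edgeR adjusted p = 0.00753). Library totals gave it 0.22, at an adjusted p of 0.259. EEF1E1 had a log2 fold change of -0.19 and did not pass.

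Export and processing genes went both ways. Of 17 tested, 5 were higher (29.4%, beside 23.7% of all tested genes) and 4 lower (23.5%, beside 21.7%), with a median of 0.03. The number of lower genes was 1 without G1 or without G2, 2 without G3, without Ga or with no filter on low counts, 3 without Gb or Gc, and 6 with library totals. Over all tested genes, 15.1 to 20.1% were lower when 1 library was left out, 16.3% with no filter and 31.4% with library totals. Among the 17 is a model that joined by the symbol RPP14 although its protein name is that of a dehydratase. Without this model 5 of 16 were higher and 4 lower. Exportin-t, xpot, which carries mature tRNA out of the nucleus, had 118, 133 and 95.5 CPM in EG, against 23.4, 22.6 and 22.3 CPM in CG, with a log2 fold change of 2.34 (edgeR adjusted p = 7.53e-05). FAM98B (fugu_GLEAN_10007230), a partner of the tRNA-splicing ligase complex, and Rpp38, a subunit of ribonuclease P, had log2 fold changes of 2.84 and 2.15 (edgeR adjusted p = 0.000259 and 0.00385). Rpp38 was scarce in CG, at 0.358, 0.442 and 0.756 CPM. The other FAM98B model (fugu_GLEAN_10011356) was lower in EG, with 1.39, 1.68 and 1.87 CPM in EG, against 3.77, 5.02 and 4.71 CPM in CG and a log2 fold change of -1.45 (edgeR adjusted p = 0.00287).

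Of 57 tRNA modification genes tested, 18 were higher (31.6%) and 11 lower (19.3%), with a median of 0.09. With library totals, as in both limma fits, 13 were higher and 15 lower. Over all tested genes library totals gave 14.1% higher and 31.4% lower. The limma fits gave 13.7% higher and 33.1% or 32.7% lower. Trmt11, a tRNA guanosine methyltransferase, had 7.20, 11.8 and 12.6 CPM in EG, against 78.0, 66.4 and 133 CPM in CG, a log2 fold change of -3.13 (edgeR adjusted p = 0.000276). The methyltransferase homolog trmt2b had one of -3.14 (edgeR adjusted p = 0.00375) and the dihydrouridine synthase DUS1L one of 2.79 (edgeR adjusted p = 6.56e-05). The level of trmt2b was low, at 0.16, 0.254 and 0.41 CPM in EG, against 2.03, 1.26 and 4.03 CPM in CG.

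On the list for delivery of charged tRNA to the ribosome 5 genes were tested, all for factors that recharge an elongation factor with GTP. Of these, 2 were higher (40%, beside 23.7% of all tested genes) and none lower. No gene model of a factor that itself carries charged tRNA joined this list by symbol. The mitochondrial elongation factor tsfm had a log2 fold change of 1.22 (edgeR adjusted p = 0.00106). For eef1g, a subunit of the factor that recharges the elongation factor with GTP, it was 0.46 (edgeR adjusted p = 0.0295). The call of eef1g was lost without Ga, Gb, G1, G2 or G3, with adjusted p between 0.0622 and 0.0876. Library totals gave eef1g 0.12, at an edgeR adjusted p of 0.549. Of 7 proofreading and release genes tested, PRORSD1 among them, 3 were higher (42.9%) and 1 lower (14.3%). Over all tested genes 23.7% were higher and 21.7% lower. Library totals gave 1 gene of this list higher and 3 lower, beside 14.1% and 31.4% of all tested genes. Without Ga or without G2, 1 was higher, beside 21.2% and 18.2% of all tested genes. PTRH2 (fugu_GLEAN_10011075), a peptidyl-tRNA hydrolase, and aarsd1, an editing protein related to the alanine enzyme, had log2 fold changes of 1.71 and 0.93 (edgeR adjusted p = 0.0311 and 0.00444). The deacylase dtd2 had one of -1.23 (edgeR adjusted p = 0.0365). Levels were low for PTRH2 in CG, at 0.501, 0.279 and 0.168 CPM, and for dtd2 in EG, at 0.693, 0.54 and 0.41 CPM. PTRH2 lost its call without Ga, Gb, G2 or G3 (adjusted p = 0.0672, 0.0749, 0.101 and 0.0942). The other PTRH2 model (fugu_GLEAN_10011073) was too scarce to be tested, at 0.144 ± 0.0426 CPM in EG and 0.272 ± 0.28 CPM in CG. The call of dtd2 was lost without Gb, Gc, G1, G2 or G3 (adjusted p = 0.0667, 0.0886, 0.104, 0.105 and 0.0905), which leaves that list without a lower gene.

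On the selenocysteine tRNA pathway list, 1 of 4 tested genes was higher (25%) and 2 lower (50%), beside 23.7% and 21.7% of all genes. TRNAU1AP, which binds that tRNA, had a log2 fold change of 1.59 (edgeR adjusted p = 0.000114). Sephs1 and EEFSEC, the elongation factor for selenocysteine, had values of -1.71 and -1.58 (edgeR adjusted p = 0.00442 and 0.00984). Sephs1 joined this list by symbol, and its part in the pathway was not tested. Of the mitochondrial transamidation genes, which make glutamine tRNA where no ligase does so, qrsl1 and gatb were tested, and with log2 fold changes of 0.31 and -0.32 neither passed.

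**Figure D5:**
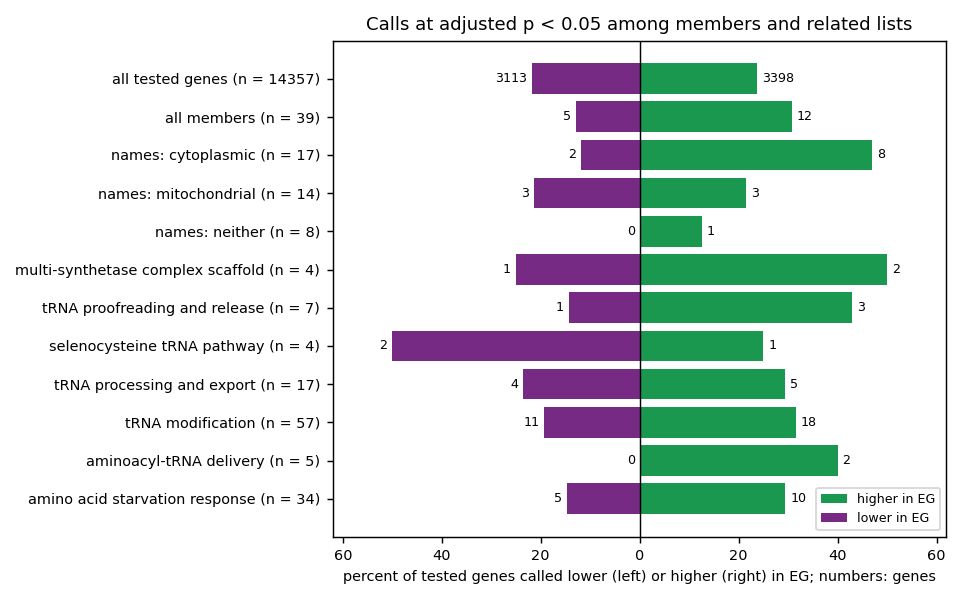
Percent of tested genes called lower (left) and higher (right) in EG at an adjusted p under 0.05, for all tested genes, the members, their name classes and 7 lists of related genes, with the number of genes at the bar ends. Cytoplasmic names show 8 of 17 higher and 2 lower, mitochondrial names 3 of 14 in each direction, and all tested genes 23.7% higher and 21.7% lower.

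Uncharged tRNA is sensed in animals by the kinase EIF2AK4, also called GCN2, which acts through the transcription factor ATF4, and ligase genes are among the known targets of ATF4 in mammals. Of 34 genes tested on the list of this response, 10 were higher (29.4%, beside 23.7% of all tested genes) and 5 lower (14.7%, beside 21.7%), with a median of 0.06. Library totals gave 7 higher and 6 lower, beside 14.1% and 31.4% of all tested genes. Both limma fits gave 7 higher, beside 13.7% of all tested genes. They gave 8 lower, beside 33.1% with log2(FPKM + 1) and 32.7% with log2(FPKM + 0.1). Without G2, 3 were lower, beside 15.4% of all tested genes. EIF2AK4 had 9.52, 15.9 and 13.2 CPM in EG, against 27.0, 35.1 and 30.6 CPM in CG, with a log2 fold change of -1.26 (edgeR adjusted p = 0.00214). Atf4 (fugu_GLEAN_10009675) had 164, 146 and 138 CPM in EG, against 75.2, 87.1 and 63.2 CPM in CG, with a log2 fold change of 0.99 (edgeR adjusted p = 0.00218). Its paralog atf4 (fugu_GLEAN_10005034) had 146, 131 and 90.9 CPM in EG, against 112, 128 and 112 CPM in CG, with overlap (log2 fold change 0.06, edgeR adjusted p = 0.809). ASNS, the asparagine synthetase that makes the amino acid NARS uses, had 4.51, 3.65 and 7.17 CPM in EG, against 9.79, 4.18 and 3.42 CPM in CG. Its groups overlapped (log2 fold change -0.18, edgeR adjusted p = 0.755). The 3 called genes of the list with the largest fitted changes were ddit4 (fugu_GLEAN_10004900), Atf3 and SLC7A1 (fugu_GLEAN_10015334), a carrier of cationic amino acids, at log2 fold changes of 3.43, 3.32 and -3.18 (edgeR adjusted p = 0.00221, 0.00117 and 6.45e-05). In CG this ddit4 model had 0.716, 0.093 and 0.504 CPM and Atf3 had 0.812, 0.558 and 0.336 CPM, so both rested on few CG reads. The other models of ddit4 (fugu_GLEAN_10004772) and SLC7A1 (fugu_GLEAN_10010821) did not pass, at -0.54 and 0.71 on the log2 scale (edgeR adjusted p = 0.418 and 0.446).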

How the data were processed

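Liver RNA of 3 EG and 3 CG pools was sequenced. The authors aligned reads with HISAT2 2.0.4 to an unpublished genome and named RSEM 1.2.3 for the normalization, per the labels and methods, and the counting tool is not given in the sources used here. The deposited counts per gene are whole numbers without normalization. The FPKM values deposited by the authors equal count over gene length and library total within 0.1% for 97.6% of values. Deposited lengths are close to coding lengths, 96.6% being multiples of 3. Fold changes and p-values that the authors computed with DESeq were not used.

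Members were found in the Swiss-Prot and, for Novel00502, other protein descriptions. The gene name column held no names, so symbols came from the Swiss-Prot text. Members and lists were chosen with earlier results of these data known. Each list joined genes by symbol, letter case and a final a or b ignored.

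R 4.3.3 with edgeR 4.0.16 (filterByExpr, TMM, quasi-likelihood F test, Benjamini-Hochberg over 14357 genes) compared EG with CG. CPM are counts over the TMM-scaled library size, and the SE is the log2 fold change over the square root of F. All members enter the counts, and 38 are named; 1 is not reported here singly. Values by library are given for the 8 largest called changes, all lower calls, the highest member per class, and both members of 11 cytoplasmic and mitochondrial pairs. Of the lists, 7 genes were named whatever their change, and otherwise at most 3 called genes per list with the largest changes. Other models of FAM98B, PTRH2, ddit4 and SLC7A1 were named after their values were seen. Alternatives were DESeq2 1.42.0, library totals, upper quartile factors, no filter, limma 3.58.1 on log2(FPKM + 1) and log2(FPKM + 0.1), and leaving out each library. The scripts were tested on simulated counts. Nothing in the sources used here says on which day libraries were made, and a batch that followed the groups cannot be told apart from temperature. Tests measure the spread between pools, and genome sequence was not used here.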

Additional observations from a re-analysis of the deposited data

How the results depend on the processing

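No paired analysis was made, because neither the labels nor the methods pair an EG library with a CG library. Of 17 called members, 11 held their call under all 12 alternatives, and none changed direction. The count of members higher in EG, 12, became 7 with library totals and 7 with limma on log2(FPKM + 1) or log2(FPKM + 0.1). That of mitochondrial names, 3, became 1 in each of these settings. With log2(FPKM + 1), 8 members were lower rather than 5, and 5 mitochondrial names rather than 3. Over all tested genes, 23.7% were higher and 21.7% lower by TMM. The share higher was 14.1% with library totals and 13.7% in each limma fit, and 33.1% were lower with log2(FPKM + 1). Over all tested genes the median log2 fold change, -0.03 by TMM, was -0.37 with library totals, -0.22 with upper quartile factors, and -0.24 and -0.36 in the limma fits, while that of the members was -0.01, 0.13, -0.02 and -0.03. The share of higher genes among all called genes, 52.2%, was 31%, 40%, 29.2% and 29.5%.

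Reversed values, all of genes that did not pass the test, were with library totals DARS -0.15, Tars_1161 -0.25, CARS -0.33, Aars2 -0.01, Sars2 -0.20, vars -0.10, farsa -0.12, FARSB -0.13 and atf4 -0.27. With upper quartile factors they were Tars_1161 -0.09, CARS -0.19, Sars2 -0.07 and atf4 -0.13. For the same genes as with library totals they were -0.15, -0.23, -0.27, -0.02, -0.15, -0.08, -0.12, -0.12 and -0.30 with log2(FPKM + 1), and -0.15, -0.24, -0.31, -0.03, -0.25, -0.10, -0.12, -0.12 and -0.30 with log2(FPKM + 0.1). Leaving out 1 library gave CARS -0.15 to 0.18, mrs-1 -0.58 to 0.17, Sars2 -0.11 to 0.35, QARS -0.31 to 0.16, EEF1E1 -0.49 to 0.05, atf4 -0.07 to 0.25 and ASNS -0.50 to 0.42.

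Leaving out 1 library, 9 to 13 members were higher and 4 to 5 lower, 7 to 8 cytoplasmic and 2 to 4 mitochondrial names were higher, 2 to 3 mitochondrial names were lower, and 9 to 12 members passed a fold change of 2. The lists held 34 to 43 higher and 16 to 23 lower genes, beside 41 and 24 with all libraries. In these fits 17.7 to 22.5% of all tested genes were higher and 15.1 to 20.1% lower at an adjusted p under 0.05. The share of all tested genes past a fold change of 2 was not taken in these fits. With all libraries it was 13.7% higher and 15.4% lower. Without the weak matches and PRORSD1, an alternative chosen after seeing the data, 11 of 35 members were higher (31.4%) and 5 lower (14.3%). Over all tested genes these shares were 23.7% and 21.7%. DESeq2 called Yars2, Kars, Eprs and PRORSD1 as well (adjusted p = 0.0428, 0.0462, 0.048 and 0.0227). With DESeq2, 15 members were higher and 6 lower, beside 19.8% and 18.3% of all genes it tested. Apart from the scaling, the cause of these shifts was not tested. Members under 100 reads per library, such as Vars2 in EG and Wars2 in CG, are limited by counting.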
